A study of Homo sapiens with 12 samples.

Results

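Gene expression was compared between verteporfin (VP) and vehicle (DMSO) in MKN45 cells, a human gastric cancer line. The samples were those whose cell line label is MKN45, 6 of the 12 arrays of the series: 3 arrays of cells given VP and 3 arrays of cells given DMSO. The other 6 arrays held AGS cells, another gastric cancer line, with the same treatments and numbers. They served to test where the response of MKN45 differed. They also entered the normalization of the signals, the filter on dim probes and the shared estimate of spread behind each p-value. All cells were grown in RPMI1640 and were treated for 36 h per the labels, and neither group carried an introduced allele. The dose of VP in the array cultures is not given in the sources used here. Levels were read on Illumina HumanHT-12 V4 arrays, and 9696 genes were tested. Each array read bulk RNA, so that fewer cells with a transcript and less of it per cell cannot be told apart. Whether replicate arrays stem from separate cultures is not stated in the labels, and p-values then reflect only array-to-array spread, which can be technical.

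Verteporfin is a porphyrin-derived photosensitizer that is used clinically with light, and it is also known to block the binding of the coactivator YAP to its TEAD transcription factor partners. In the Hippo pathway the kinases STK3, STK4, LATS1 and LATS2 keep YAP out of the nucleus, and nuclear YAP with TEAD drives genes such as CCN2, CCN1 and ANKRD1. MKN45 comes from a poorly differentiated gastric adenocarcinoma and is known for amplification and high expression of MET, the receptor of hepatocyte growth factor, and for carcinoembryonic antigen. FAT1 is an atypical cadherin, a very large cell surface glycoprotein.

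The series holds 2 tables of the same 12 samples, and these did not describe the MKN45 line alike. One is a table of signals, the other a value table of log2 levels that the authors had normalized within each line. MET, chosen as a marker of the line, stood at 12.57, 12.60 and 12.60 in MKN45 DMSO arrays and at 8.998, 8.824 and 8.793 in AGS DMSO arrays of the value table (log2 level). In the signals MET stood at 8.95, 9.08 and 8.98 in the arrays labelled MKN45 DMSO and at 8.89, 8.84 and 8.64 in those labelled AGS DMSO. The lines were thus 3.72 log2 units apart in the value table, against 0.21 in the signals. CEACAM5, the carcinoembryonic antigen, averaged 11.11 ± 0.12 in MKN45 DMSO arrays and 6.58 ± 0.007 in AGS DMSO arrays of the value table (SD, n = 3 each), where it was above background on none of the 6 AGS arrays. In the signals CEACAM5 averaged 8.192 ± 0.15 in the arrays labelled MKN45 DMSO and 7.003 ± 0.17 in those labelled AGS DMSO (SD, n = 3 each). CEACAM6 and the epithelial cadherin CDH1 were 3.26 and 3.83 log2 units higher in MKN45 DMSO than in AGS DMSO of the value table, against 0.39 and 0.83 units in the signals. Lines normalized apart are not on a common scale, but their sorted values differed by at most 0.085.

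**Figure D1:**
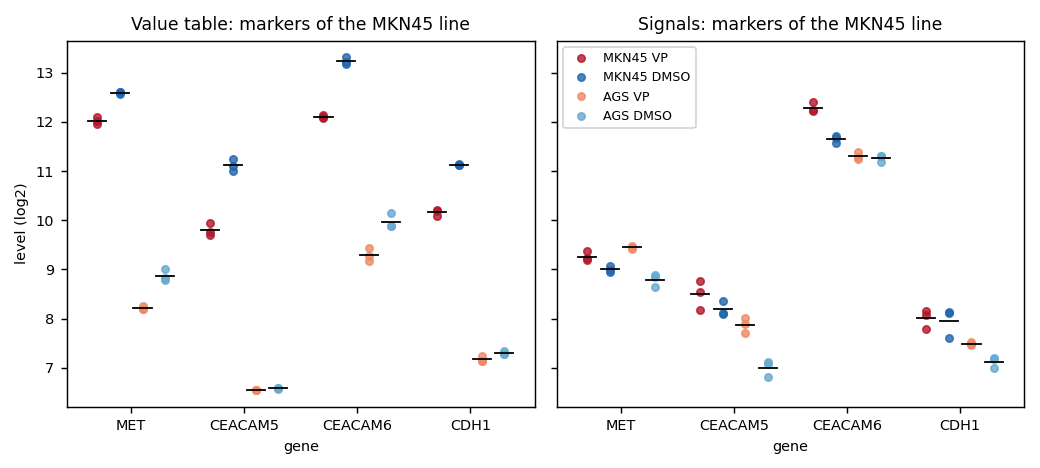
Levels (log2) of MET, CEACAM5, CEACAM6 and CDH1 in the value table (left) and the signals (right), with 1 point per array, a bar at the mean of 3 arrays and the 4 groups of samples in colour. In the value table the 6 MKN45 arrays lie above the 6 AGS arrays for all 4 genes, by 3.72 log2 units for MET between the DMSO groups, while in the signals the DMSO groups lie 0.21 units apart for MET.

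The columns of the tables were therefore set against each other over all probes. Each of the 6 signal columns labelled MKN45 had its highest rank correlation with an AGS column of the value table. These columns correlated at 0.784 to 0.814 with MKN45 columns of the value table and at 0.803 to 0.839 with its AGS columns. Within the signals, pairs of columns with the same line label correlated at 0.843 to 0.903 and pairs with different labels at 0.829 to 0.888. Within the value table these ranges were 0.828 to 0.849 and 0.787 to 0.808. The 6 signal columns labelled AGS were all closest to AGS columns of the value table, and the source of the columns labelled MKN45 was not tested further. The value table is given first below for this reason, an order chosen after the markers were seen, and the signals follow under the name of the arrays labelled MKN45. The epithelial markers EPCAM, KRT8, KRT18, KRT19 and CDH1 were above background on all 6 arrays under the MKN45 label in both tables. No marker of leukocytes (0 of 3), fibroblasts (0 of 5) or endothelium (0 of 3) was above background on all 6 arrays in either table. Of 4 hepatocyte markers, ALB alone was above background on all 6 arrays, in the value table only, at 7.22 ± 0.11 in VP arrays and 7.22 ± 0.14 in DMSO arrays (log2 level, SD, n = 3 each). Probes detected per array under the MKN45 label numbered 15118 to 16571, and correlations between replicates were 0.987 or more in both tables. Precision is limited by there being 3 arrays a group.

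Of 9696 genes in the value table, 1065 rose with VP in MKN45 cells (11%) and 1041 fell (10.7%), by limma with an adjusted p under 0.05. Among these genes, which had passed a filter on the signals, the falls were the larger: 23 fell by more than 1 log2 unit and 0 rose by that much. With a filter on the value table itself, given below, ADH1A and ADH1C rose by more than 1 log2 unit, while COL4A1, NNMT and HSD17B2 fell by more than that. Genes of the cell surface, of the secretory pathway and of the response to low oxygen were among the leading falls, and enzymes of amino acid synthesis and of carbonyl reduction were among the leading rises.

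FAT1 had 9.27, 9.25 and 9.28 in VP arrays, against 10.73, 10.67 and 10.90 in DMSO arrays of the value table (log2 level). The groups did not overlap, and the difference was -1.50 ± 0.06 (VP minus DMSO, log2, SE, adjusted p = 3.1e-15, limma). The other FAT1 probe on the array had means of 8.37 in VP arrays and 9.75 in DMSO arrays, a difference of -1.38. FAT1 fell by 2.17 on the log2 scale in AGS as well, and the fall in MKN45 was the smaller by 0.67 (adjusted p of the difference = 5.7e-06).

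TXNIP, an arrestin-domain protein that binds thioredoxin and restrains glucose uptake, had 8.61, 8.53 and 8.54 in VP arrays and 10.19, 10.18 and 10.21 in DMSO arrays of the value table. Its difference of -1.63 ± 0.06 was the largest fall among the 9696 genes (adjusted p = 8.4e-16). CEMIP, a hyaluronan-degrading secreted protein, had 7.11, 7.14 and 7.10 in VP arrays and 8.57, 8.47 and 8.67 in DMSO arrays, a difference of -1.45 ± 0.06. IGF2R, the receptor that carries mannose 6-phosphate tagged enzymes to lysosomes, had 7.87, 8.01 and 7.94 in VP arrays and 9.50, 9.17 and 9.32 in DMSO arrays, a difference of -1.39 ± 0.07. In each of these genes the highest VP array lay more than a log2 unit below the lowest DMSO array. GLG1, a Golgi sialoglycoprotein, and DSG2, a desmosomal cadherin, differed by -1.34 and -1.33. The membrane mucin MUC13 differed by -1.34.

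Among the rises of the value table, ASNS, which makes asparagine, had 10.90, 11.01 and 10.93 in VP arrays and 10.05, 10.19 and 10.20 in DMSO arrays. The difference was 0.80 ± 0.06 (adjusted p = 6.2e-10), and it was the largest rise among the 9696 genes. ALDH3A1, an aldehyde dehydrogenase, had 12.62, 12.60 and 12.42 in VP arrays and 11.81, 11.79 and 11.69 in DMSO arrays, a difference of 0.78 ± 0.06. The aldo-keto reductases AKR1C4 and AKR1C3 rose by 0.80 and 0.75, with the reserve that their close sequences can share hybridization. The zinc finger gene ZSCAN31 rose by 0.77, the galectin gene LGALS3 by 0.72, and the small noncoding RNAs SCARNA13 and RNY1 by 0.72 and 0.71.

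**Figure D2:**
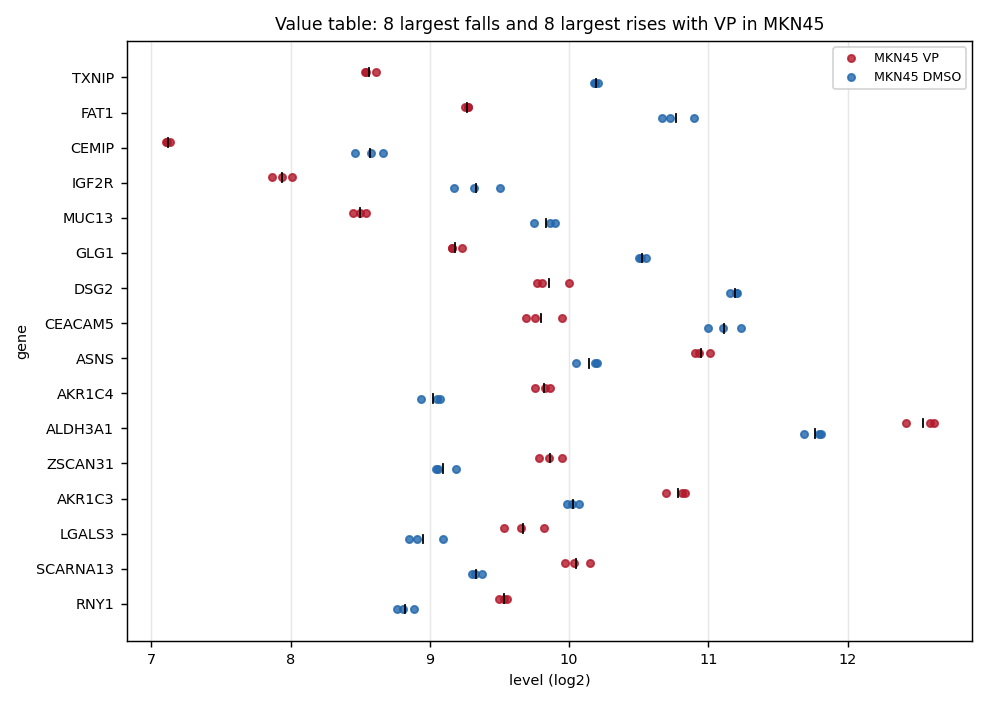
Levels (log2) in the value table of the 8 genes with the largest falls (top) and the 8 with the largest rises (bottom) with VP in MKN45 among the 9696 genes detected in the signals, with 1 point per array, VP drawn above DMSO in each row, and a bar at the mean of 3 arrays. VP and DMSO arrays do not overlap in any of the 16 genes, from -1.63 for TXNIP to 0.80 for ASNS.

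Receptors that hold epithelial cells to matrix fell together in the value table. Of 9 integrin chains tested, 8 fell and 0 rose, against 10.7% of all genes lower, with a median difference of -0.91 (0.014 over all genes). ITGA2, the collagen-binding chain, had 8.14, 8.15 and 8.20 in VP arrays and 9.30, 9.29 and 9.27 in DMSO arrays. Its difference was -1.12 ± 0.06 (adjusted p = 3.6e-13). The laminin-binding chains ITGB4, ITGA6 and ITGA3 differed by -1.02, -1.01 and -0.83, and ITGB1 and ITGAV by -0.91 and -0.93. Their ligands moved the same way: 7 of 9 laminins and matrix proteins fell and 0 rose (median -0.35), among them the laminin chains LAMC1 (-1.06) and LAMA5 (-0.93). Of 26 large glycoproteins and sorting receptors, 21 fell and 1 rose (median -0.56). These included CPD, a carboxypeptidase of the trans-Golgi network (-1.14), LAMP2, a lysosomal membrane protein (-1.07), and JAG1, a ligand of Notch (-0.80). MET itself differed by -0.57 ± 0.06. The 8 genes that the study picked, FAT1, IGF2R, CDH17, MUC1, ALCAM, ITGB1, ERBB3 and ITGAV, all fell in the value table. The study picked them from its arrays of these lines, so that their shared direction is not independent evidence. Apart from the arrays, the paper measured FAT1 after VP by Western blot and qRT-PCR, and other genes by qRT-PCR. It reports FAT1 as lower in organoids given VP. Among them MUC1 differed by -1.19, ALCAM by -0.91, CDH17 by -0.73 and ERBB3 by -0.41.

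Some junction and intestinal-type genes were lower as well. CDH1, the cadherin of adherens junctions, had 10.20, 10.19 and 10.09 in VP arrays and 11.13, 11.14 and 11.13 in DMSO arrays of the value table, a difference of -0.97 ± 0.06 (adjusted p = 1.1e-12). Of 16 cadherins, catenins and desmosome genes, 8 fell, against 10.7% of all genes, and 0 rose, with the desmocollin DSC2 at -0.98. The catenins CTNNB1 and CTNND1, which link cadherins to the cytoskeleton, differed by -0.01 and 0.01 and did not pass. Of 13 intestinal-type genes 5 fell and 2 rose (median -0.08), of 12 claudins and tight junction genes 4 fell and 0 rose, and of 7 keratins 2 fell and 0 rose. CEACAM5 and CEACAM6 differed by -1.31 and -1.13, REG4, a secreted lectin of intestinal-type gastric cells, by -1.13, and the pore-forming claudin CLDN2 by -1.31. EGFR, the receptor of epidermal growth factor, differed by -1.04 ± 0.06.

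Genes that cells switch on in low oxygen fell in the value table. HIF, the hypoxia-inducible factor, is known to bind ACGTG, and 18.5% of promoters hold these letters, on either strand, within 250 bases before the start (RefSeq, GRCh38.p14). For the 3 members whose values follow, the stretch around the match is shown, 5′ to 3′ on the strand of the gene, with the match in capitals (CACGT is the match on the other strand, and in BNIP3 the matches overlap).
PLOD2 (chr3:146161314-146161396, minus strand): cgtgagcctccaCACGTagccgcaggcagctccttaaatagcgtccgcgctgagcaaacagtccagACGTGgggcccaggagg
P4HA1 (chr10:73096936-73096964, minus strand): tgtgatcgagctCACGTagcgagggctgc
BNIP3 (chr10:131982040-131982069, minus strand): gcgcacgcgccgCACGTGccacacgcaccc
Of 19 members of the list with a promoter in the table, 13 held a match, against 21.7% of all genes. A match is a description of the letters and not a bound site. The share is over listed genes, tested or not, and describes the list and not its change with VP.

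PLOD2, which hydroxylates lysines of collagen, had 9.82, 9.79 and 9.69 in VP arrays and 10.98, 11.05 and 11.02 in DMSO arrays of the value table. The difference was -1.25 ± 0.05 (adjusted p = 9.8e-15). P4HA1, a prolyl hydroxylase of collagen, had 8.34, 8.27 and 8.23 in VP arrays and 9.22, 9.35 and 9.39 in DMSO arrays, a difference of -1.04 ± 0.07. BNIP3, a mitophagy receptor, had 10.13, 10.01 and 9.97 in VP arrays and 10.72, 10.74 and 10.72 in DMSO arrays, a difference of -0.69 ± 0.06. No VP array reached the DMSO arrays in any of these genes. Of 20 hypoxia-induced genes tested, 16 fell and 0 rose, against 10.7% of all genes lower, with a median of -0.47. The vasodilator peptide gene ADM differed by -0.72, NDRG1 by -0.48, and VEGFA, the vascular growth factor, had a difference of 0.07 that did not pass. Glucose uptake and glycolysis followed, with 12 of 21 genes lower and 1 higher (median -0.18). The glucose transporters SLC2A3 and SLC2A1 differed by -0.86 and -0.69 and the glycolytic kinase PGK1 by -0.48, while ALDOC, an aldolase, rose by 0.31 and GAPDH differed by 0.065 without passing.

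The endoplasmic reticulum folds secreted and membrane proteins, and its chaperones are known to be induced through an element made of CCAAT, a spacer of 9 bases and CCACG, held on either strand by 0.074% of promoters. The elements of 3 chaperone genes that fell are shown (5′ to 3′ on the strand of the gene, match in capitals, the second match of HSP90B1 on the other strand).
HSP90B1 (chr12:103930204-103930351, plus strand): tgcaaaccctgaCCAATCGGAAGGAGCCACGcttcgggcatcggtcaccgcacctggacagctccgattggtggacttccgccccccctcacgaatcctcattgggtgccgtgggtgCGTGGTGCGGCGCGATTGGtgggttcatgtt
HSPA5 (chr9:125241379-125241421, minus strand): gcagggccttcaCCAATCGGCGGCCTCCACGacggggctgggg
CANX (chr5:179698766-179698808, plus strand): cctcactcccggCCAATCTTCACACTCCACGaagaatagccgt
HSP90B1, the chaperone of integrins and Toll-like receptors, had 11.35, 11.32 and 11.31 in VP arrays and 12.35, 12.37 and 12.47 in DMSO arrays of the value table. The difference was -1.07 ± 0.06 (adjusted p = 2.4e-13). CANX, which binds glycoproteins as they fold, differed by -0.93 ± 0.05, PDIA6, a disulfide isomerase, by -0.67 ± 0.10, and HSPA5, the main Hsp70 of the compartment, by -0.43 ± 0.06. Of 19 such genes 13 fell, against 10.7% of all genes, and 2 rose, SEC61B by 0.26 and CRELD2 by 0.25 (0.19, adjusted p = 0.051, without DMSO replicate 3), with a median of -0.36. Of 22 chaperone genes with a promoter in the table, 7 held the element, against 0.0916% of all genes. These were HSPA5, HSP90B1, CALR, CANX, PDIA6, XBP1 and CRELD2, and CRELD2 was among the genes that rose. This share too is over listed genes, tested or not, and describes the list and not its change with VP.

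Genes of the amino acid response moved in both directions in the value table. ATF4 is a transcription factor that is translated when amino acids run short or proteins misfold, and ASNS carries its composite site TGATGNAA, held on either strand by 3.14% of promoters. The stretch is shown with the match in capitals.
ASNS (chr7:97872457-97872488, minus strand): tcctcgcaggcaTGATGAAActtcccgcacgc
Of 31 genes tested, 13 rose, against 11% of all genes higher, and 5 fell, with a median of 0.15. ASNS had the largest rise, 0.80. The pseudokinase TRIB3 rose by 0.59, the mitochondrial folate enzyme MTHFD2 by 0.46 and CTH, which makes cysteine, by 0.37. The 5 that fell were the amino acid transporters SLC38A2 (-0.62), SLC7A1 (-0.52) and SLC7A11 (-0.18, a call lost when any of 5 of the 6 arrays was left out), with DDIT4 (-0.32), an inhibitor of the mTOR kinase, and the secreted factor GDF15 (-0.22). Of 33 aminoacyl-tRNA synthetases, 9 rose and 0 fell (median 0.07). Of 17 NRF2 antioxidant genes, 7 rose and 2 fell (median 0.14), with the autophagy receptor SQSTM1 at 0.51 and the pentose phosphate enzyme PGD at 0.42. Of 73 nuclear subunits of oxidative phosphorylation, 17 rose and 0 fell (median 0.10), and of 108 small nucleolar, Cajal and spliceosomal RNAs, 27 rose and 4 fell (median 0.09).

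Genes of the Hippo pathway and targets of YAP and TEAD were also read in the value table. Of 13 members of the core and the TEAD cofactors, 1 rose and 1 fell. These shares, 7.69% each, were near those of all genes (11% higher and 10.7% lower). Of 14 YAP and TEAD targets, 4 fell and 0 rose (median -0.08), a share of 28.6% against 10.7% of all genes. F3, tissue factor, had 7.57, 7.46 and 7.51 in VP arrays and 8.26, 8.35 and 8.32 in DMSO arrays, a difference of -0.80 ± 0.07 (adjusted p = 9.8e-10). CCN2 differed by -0.26 ± 0.06 (adjusted p = 0.0021), while ANKRD1 and CCN1, at 0.07 and -0.13, did not pass. Without DMSO replicate 3, CCN1 differed by -0.195 (adjusted p = 0.032). YAP1 itself had 7.88, 7.82 and 7.76 in VP arrays and 7.42, 7.62 and 7.59 in DMSO arrays, a rise of 0.28 ± 0.07 (adjusted p = 0.0027). MYC had overlapping groups and a difference of 0.07 ± 0.06 that did not pass (adjusted p = 0.46).

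The response of MKN45 was then tested against that of AGS in the value table, with an interaction contrast of limma within each line. The effect was more positive in MKN45 for 645 genes (6.65%) and more negative for 487 genes (5.02%). Of the 20 hypoxia-induced genes, 8 had a more negative effect in MKN45 and 0 a more positive one, and the medians were -0.47 in MKN45 and -0.02 in AGS. A gene at background in AGS could not fall there. Among the 17 of these genes that were above background on all arrays of a group in each line, 6 had a more negative effect in MKN45 and 0 a more positive one, with medians of -0.47 in MKN45 and -0.03 in AGS. NDRG1 differed by -0.48 in MKN45 and by 0.31 in AGS (difference of the effects -0.79, adjusted p = 2.2e-06). PLOD2 was above background on 0 of the 6 AGS arrays and BNIP3 on 1. Of the 21 glycolysis genes, 8 were more negative in MKN45 and 0 more positive, with medians of -0.18 in MKN45 and 0.08 in AGS. The stress genes GDF15, PHLDA1 and IER3 fell in MKN45 and were higher with VP in AGS, with differences of the effects of -1.04, -1.03 and -0.99. REG4 and CDH1 also had more negative effects in MKN45, with differences of the effects of -0.95 and -0.84, while that of CDH17 was more positive, by 0.91. Of 13 intestinal-type genes, 5 had a more positive effect in MKN45 and 3 a more negative one. CEACAM5, among the more negative, was above background on 0 of the 6 AGS arrays. In the other direction, 14 of the 26 large glycoproteins had a less negative effect in MKN45, and 1 a more negative one, with medians of -0.56 in MKN45 and -0.83 in AGS. PTPRK, a receptor phosphatase, differed by -0.33 in MKN45 and by -1.42 in AGS. Of the 9 integrin chains, 3 had a more positive effect in MKN45 and 0 a more negative one, with medians of -0.91 in MKN45 and -0.88 in AGS.

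**Figure D3:**
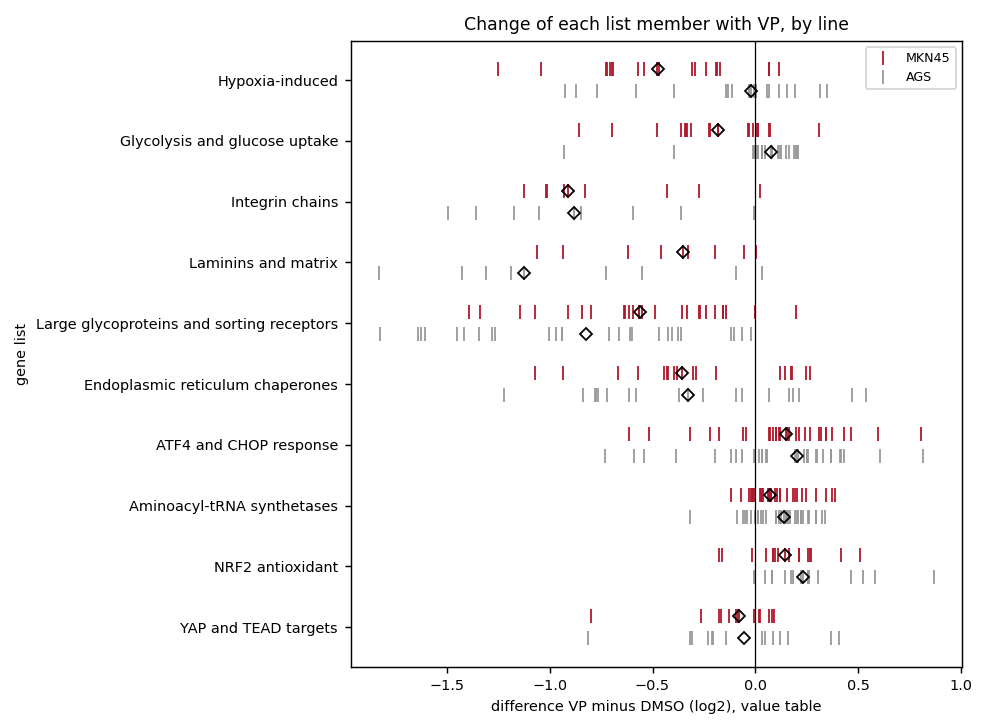
Difference VP minus DMSO (log2, value table) of each tested member of 10 gene lists, with MKN45 drawn above AGS in each row, a tick per gene and a diamond at the median. The hypoxia list has medians of -0.47 in MKN45 and -0.02 in AGS, and the large glycoproteins of -0.56 in MKN45 and -0.83 in AGS.

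The filter on dim probes came from the signals, in which the arrays labelled MKN45 lacked the marker levels of the line, so that genes above the background of the value table itself were also tested, a choice made after the tables were seen. This gave 10923 genes, of which 10.6% rose and 10.7% fell, and 1495 of them had not been tested before. Of these 1495 genes, 83 rose and 124 fell. The leading genes among them, named after their values were seen, were as follows. COL4A1, a chain of basement membrane collagen, had 7.98, 7.90 and 7.92 in VP arrays and 9.29, 9.31 and 9.22 in DMSO arrays, a difference of -1.34 ± 0.06 (adjusted p = 3.8e-15). NNMT, which methylates nicotinamide, and HSD17B2, which oxidizes estradiol, differed by -1.09 and -1.06. ADH1A, an alcohol dehydrogenase, had 8.30, 8.30 and 8.26 in VP arrays and 7.14, 7.04 and 7.03 in DMSO arrays, a difference of 1.22 ± 0.06 (adjusted p = 2.4e-14). Its close relative ADH1C rose by 1.08, and PHGDH, which starts the synthesis of serine, by 0.65. NNMT, HSD17B2, ADH1A, ADH1C and PHGDH were above background on 0 of the 6 AGS arrays, so that no comparison of their response between the lines is given.

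In the signals of the arrays labelled MKN45, 2225 of 9696 genes rose with VP (22.9%) and 2243 fell (23.1%). With each array shifted to a common median in place of quantile normalization, 3363 genes rose (34.7%) and 601 fell (6.20%), and the median of all genes moved to 0.27, against -0.02. The changes were larger than in the value table, with 441 rises and 184 falls of more than 1 log2 unit. FAT1 had 12.13, 12.21 and 12.27 in VP arrays and 11.96, 11.85 and 11.92 in DMSO arrays of the signals. The groups did not overlap, but the difference of 0.29 ± 0.13 did not pass (adjusted p = 0.073), and the sign is opposite to that in the value table. It passed with the median shift, at 0.50 (adjusted p = 0.028), with the 6 arrays alone (adjusted p = 0.035) and with the replicate number as a block (adjusted p = 0.033).

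The rises of the signals were led by CST4. CST4, a salivary-type cystatin that inhibits cysteine proteases, had 13.02, 12.86 and 12.86 in VP arrays and was not well above background in any DMSO array. The floor of those arrays makes the rise at least 7.22 on the log2 scale. This bound is the VP mean over the DMSO mean with each DMSO array at the lowest signal above background. It was not tested itself, and the fit of the dim values as read gave an adjusted p of 2.6e-14 (limma). HSD3B1, an enzyme of steroid synthesis, rose by at least 6.46, and CBLIF, gastric intrinsic factor, by at least 4.55, both again with no DMSO array above background. CST2, PTPRH, a receptor phosphatase, and ALOX5AP, which serves leukotriene synthesis, rose by at least 4.79, 4.52 and 4.17. The cystatins CST1, CST2, CST4 and CST5 are near copies of each other and their probes may share targets. TFF1, a trefoil peptide of the gastric surface, had 12.84, 12.92 and 12.78 in VP arrays and 5.66, 6.33 and 6.45 in DMSO arrays, and 2 of these 3 DMSO arrays were above background. Rises of this size were absent from the value table. Of 6 cystatins tested there, 1 rose and 0 fell, and the highest difference was 0.32. Of 9 mucin, trefoil and gastric secretory genes there, 1 rose and 5 fell, with the highest at 0.35. Of all genes there, 11% rose and 10.7% fell.

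The fibrinogen chains, blood clotting proteins made mostly by liver, rose in the signals. FGA had 12.68, 12.43 and 12.42 in VP arrays and 7.92, 7.59 and 7.97 in DMSO arrays, a difference of 4.68 ± 0.14 (adjusted p = 2.3e-11). FGB and FGG rose by 4.68 and 3.23. In the value table, of 5 fibrinogen and acute phase genes tested, 0 rose and 3 fell (median -0.29). Of all genes there, 10.7% fell. Of 4 hepatocyte markers, 0 were above background on all 6 arrays in the signals, ALB being above it on 2 of them and APOA1, APOB and TTR on 0. SULT2A1, a sulfotransferase, and ECM1, a matrix glycoprotein, each rose by 4.75, the cobalamin carrier TCN1 by 4.53, the trypsin inhibitor SPINK1 by 4.04, the serine protease TMPRSS2 by 3.62 and the bone morphogenetic protein BMP2 by 2.94.

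Stress response genes rose broadly in the signals. Of 31 ATF4 and CHOP genes, 24 rose and 0 fell (27 and 0 with the median shift), against 22.9% of all genes higher, with a median of 0.80. CHAC1, which degrades glutathione, had 10.52, 10.32 and 10.14 in VP arrays and 6.94, 6.90 and 6.63 in DMSO arrays, a difference of 3.50 ± 0.14 (adjusted p = 3.3e-10). DDIT3, which encodes CHOP, rose by 2.42, ASNS by 2.52 and DDIT4 by 2.88. Of 30 immediate early and ERK feedback genes, 21 rose and 3 fell (21 and 1 with the median shift), with the transcription factors FOS at 2.19 and EGR1 at 1.64. Of 20 hypoxia-induced genes, 14 rose and 0 fell (17 and 0 with the median shift), with a median of 0.80. ADM rose by 4.15, with 2 of 3 DMSO arrays above background, ANKRD37, a short ankyrin protein, by 2.74, NDRG1 by 2.16 and P4HA1 by 1.48. Glycolysis went the same way, with 11 of 21 genes higher and 0 lower (12 and 0 with the median shift). HK1 and HK2, which phosphorylate glucose, rose by 2.47 and 2.37 and their relative HKDC1 by 5.06, with 1 of 3 DMSO arrays above background. TXNIP rose by 1.43 and its relative ARRDC4 by 1.88.

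Among the lists lower in the signals were ribosome biogenesis, small nuclear and nucleolar RNAs, heat shock and DNA replication, and the counts depended on the scaling. Of all genes, 23.1% were lower and 22.9% higher, and with the median shift 6.20% were lower and 34.7% higher. HSPA1B, an inducible Hsp70, had 8.87, 9.21 and 9.36 in VP arrays and 11.67, 11.38 and 11.29 in DMSO arrays, a difference of -2.31 ± 0.13 (adjusted p = 1.7e-08). HSPA1A, nearly identical to it, fell by at least 0.68 on the log2 scale, with no VP array above background, and HSPA8 fell by 1.24. Of 18 cytosolic heat shock genes, 10 fell and 3 rose (4 and 3 with the median shift). Of 29 ribosome biogenesis genes, 24 fell and 0 rose (11 and 0 with the median shift), and of 108 small nucleolar, Cajal and spliceosomal RNAs, 68 fell and 1 rose (42 and 6 with the median shift). SNORD99 differed by -1.90 and DANCR, a small nucleolar RNA host, by -1.63. Of 40 DNA replication genes, 25 fell and 2 rose (3 and 2 with the median shift, a share of lower genes near that of all genes). Of 71 cytosolic ribosomal proteins, 10 fell and 0 rose (median -0.045), a lower share than that of all genes. The cyclin CCND1 differed by -1.19 and the histone H2AX by -1.43. Other leading falls were the endothelial lipase LIPG (-2.00), the growth factor carrier FGFBP1 (-1.88), the antiviral tether BST2 (-1.75) and the transcription factor ATF5 (-1.74). VGLL1, a cofactor of TEAD, fell by at least 1.26 with no VP array above background. Of 14 YAP and TEAD targets, 5 rose and 3 fell (6 and 1 with the median shift), 35.7% and 21.4% of them.

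**Figure D4:**
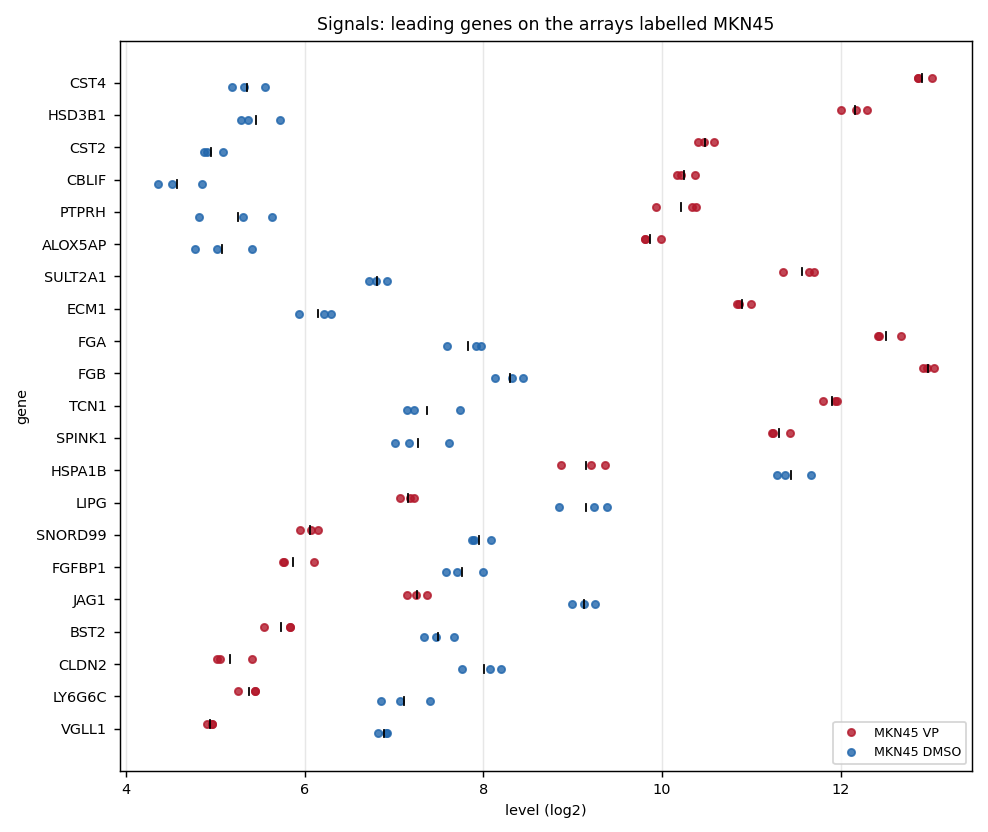
Levels (log2, background corrected and quantile normalized) in the signals of the leading genes on the arrays labelled MKN45, with 1 point per array, VP drawn above DMSO in each row, and a bar at the mean of 3 arrays. CST4, at the top, has VP arrays from 12.86 to 13.02, and HSPA1B and the genes under it lie lower in VP arrays.

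The effect of VP was more positive on the arrays labelled MKN45 than on those labelled AGS for 558 genes of the signals (5.75%) and more negative for 529 genes (5.46%). With the median shift the total was 428 genes, against 1087. ECM1, above background on all 12 arrays, rose by 4.75 under the MKN45 label and by 3.56 under the AGS label (difference of the effects 1.19). BST2 differed by -1.75 under the MKN45 label and by 0.86 under the AGS label (adjusted p of the difference = 1.4e-05), where no AGS DMSO array was above background. IFI27, an interferon-induced gene, rose by 0.90 under the MKN45 label and by 3.99 under the AGS label (adjusted p of the difference = 1.4e-05). Of 29 interferon-stimulated genes, 4 rose and 12 fell under the MKN45 label, against 22.9% and 23.1% of all genes. The effect was more negative under the MKN45 label for 18 of the 29 and more positive for 0. Among the 24 above background on all arrays of a group under each label, 15 were more negative and 0 more positive. For this list the labels were compared under quantile normalization alone, so that its dependence on the scaling is not known.

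Set side by side, the tables gave unlike changes under the MKN45 label. Across the 9696 genes, which are not independent replicates, the changes correlated at -0.11 (Pearson) and -0.11 (Spearman), and the same probe stood for 9453 of the genes. A total of 1104 genes passed in both tables, 422 with the same sign and 682 with opposite signs. TXNIP, P4HA1, ADM, NDRG1, SLC38A2 and DDIT4 were lower with VP in the value table and higher in the signals. ITGAV had a difference of -0.93 in the value table against 0.65 in the signals, and CDH17 had -0.73 against 0.48. Some genes moved alike. CLDN2 had 9.74, 9.80 and 9.83 in VP arrays and 11.11, 11.13 and 11.05 in DMSO arrays of the value table, and in the signals its fall, bounded by -2.39 on the log2 scale, was at least that large, with no VP array above background. MUC1 differed by -1.19 in the value table, against -0.92 in the signals, JAG1 by -0.80 and -1.87, and HSPA5 by -0.43 and -0.80. ASNS differed by 0.80 and 2.52, and TRIB3 by 0.59 and 1.66. The list of HSPA5 did not follow it. Of 19 chaperone genes, 9 rose and 3 fell in the signals, with a median of 0.25 (10 and 1 with the median shift). Among all genes of the signals, 22.9% rose and 23.1% fell (34.7% and 6.20% with the median shift). Of the same 19 chaperone genes, 2 rose and 13 fell in the value table, against 11% and 10.7% of all genes there.

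**Figure D5:**
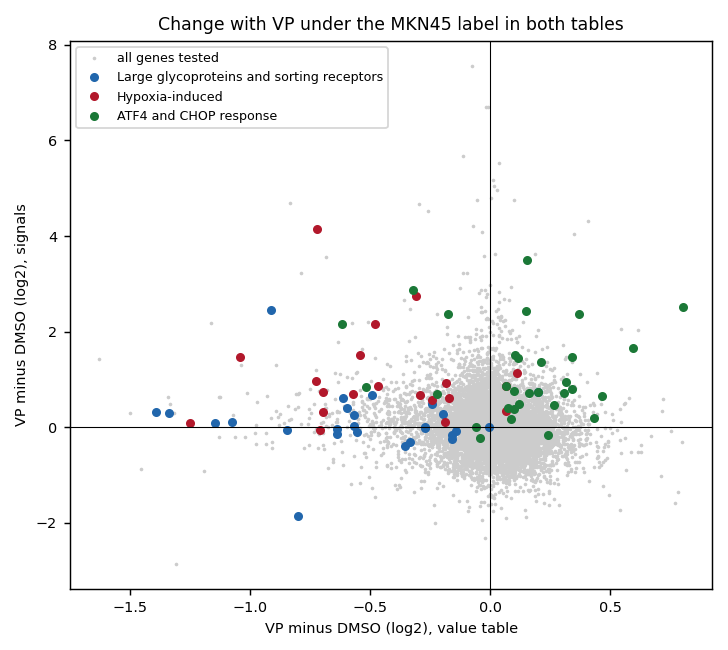
Difference VP minus DMSO (log2) of each tested gene under the MKN45 label in the value table (horizontal axis) and in the signals (vertical axis), 1 grey point per gene, with members of 3 gene lists in colour. The genes correlate weakly (Pearson -0.11), and the hypoxia genes lie mostly at the upper left, lower with VP in the value table and higher in the signals.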

How the data were processed

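RNA from MKN45 and AGS cells given VP or DMSO was read on Illumina arrays. The authors deposited linear probe intensity signals with a detection p-value for each, and the notes name GenomeStudio, without its version. A value table was deposited too, per the methods log2 levels after quantile normalization in limma, and its sorted values show that this was done within each line. Past row 21197 its values belonged to the probe of the next row (rank correlation with the signals 0.296 on the same row, 0.927 on the next), so names were moved by 1 there, and a closing row on a linear scale was dropped.

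With neqc (offset 16), the detection p-values served to correct the signals for background, after which they were quantile normalized and log2 transformed (limma 3.58.1, R 4.3.3). Probes with a detection p under 0.01 on all 3 arrays of a group were kept, and the brightest stood for its gene. Of 47323 probes, 30113 had 1 gene symbol, 8 had several and 17202 had none. A fit of 4 groups over 12 arrays was made with lmFit and eBayes, with Benjamini-Hochberg adjustment over 9696 genes, and tested on simulated data. A probe of the value table was above background past the mode of its array plus the 99th percentile of the spread below it. A rise or fall is called at least N where a probe was above background on all arrays of a group and none of the other, with the dim arrays at the lowest signal above background.

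The genes named were the largest changes of each table, the list members of smallest p, the genes the study picked, the largest line differences and the markers, with further list members (such as PDIA6, SLC2A1, CCN1, VEGFA, GAPDH, CTNNB1, PTPRK and GDF15) added after their values were seen. Members and lists were chosen with earlier results of these data known. The main fit did not pair VP and DMSO arrays by replicate number. In the signals, deviations from the group means correlated at 0.21, 0.021 and -0.023 for shared numbers, against -0.233 to 0.203 for unshared numbers. In the value table the shared numbers gave 0.055, 0.08 and 0.123, each above the unshared ones (-0.11 to 0.034). Counts with the replicate number as a block are given below. Promoters came from RefSeq (GRCh38.p14). The methods give a longer treatment than the labels and name another deposit for the arrays, and the labels were used.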

Additional observations from a re-analysis of the deposited data

Results flagged for a closer look

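Each gene given here drew attention because its response to VP differed between the MKN45 and AGS labels. The test was of the difference itself, the interaction contrast of limma, at an adjusted p under 0.001. Values are the MKN45 effect minus the AGS effect, in log2 units. The effect in the value table was more negative in MKN45 for GDF15 (-1.04), PHLDA1 (-1.03), IER3 (-0.99), REG4 (-0.95), CLDN2 (-0.92), MUC13 (-0.87) and CDH1 (-0.84). The same held for NDRG1 (-0.79), DDIT4 (-0.73), CEMIP (-0.67), ADM (-0.61), F3 (-0.57), TXNIP (-0.55) and PGK1 (-0.47). It was more positive in MKN45 for PTPRK (1.08), CDH17 (0.91), ZSCAN31 (0.78), LAMC1 (0.77), FAT1 (0.67), ALCAM (0.64), ITGB1 (0.58) and DSG2 (0.57). Smaller positive differences were those of CCN2 (0.55), AKR1C3 (0.55), LAMP2 (0.53), ERBB3 (0.49), GLG1 (0.49), CPD (0.48) and ITGAV (0.43). Other differences were set in part by a probe at background in AGS, which limits any change there. CEACAM5 (-1.28), PLOD2 (-1.23) and TRIB3 (0.56) were above background on 0 of the 6 AGS arrays and BNIP3 (-0.75) on 1, and AKR1C4 (0.69) was above it on 0 of the 3 AGS DMSO arrays. ADM, given above, was above it on 0 of the 3 AGS VP arrays.

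In the signals, where the arrays labelled MKN45 lacked the marker levels of the line, the effect was more positive under the MKN45 label for ECM1 (1.19) and more negative for IFI27 (-3.08) and FGG (-2.42). For the following genes a group was not above background on any array, so that the size of the fitted difference is no measure. These were CST4 (2.26), in MKN45 DMSO, and TRIB3 (-2.65), BST2 (-2.62) and TCN1 (-1.98), in AGS DMSO.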

How the results depend on the processing

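The count of genes changed with VP in MKN45 was 4468 for the signals and 2106 for the value table. In the signals it was 6732 with every detected probe counted and 2106 with the value table as the source, and 601 of the 3964 genes called with the median shift were lower. In the value table it was 1024 over the 4492 genes before the rows go out of step, and 977 with the methods' t-test after Benjamini-Hochberg. At an unadjusted p under 0.001 limma gave 2479 genes (signals) and 1230 (value table), against 861 and 423 with the methods' t-test and 2160 and 1251 with the random variance test. Genes whose effect differed between the line labels numbered 1087 in the signals, 428 with the median shift (the cause was not tested), and 1132 in the value table. Leaving out each MKN45 array in turn gave 3577 to 4209 genes in the signals and 1625 to 1782 in the value table. Genes whose effect differed between the labels then numbered 729 to 1005 in the signals and 859 to 1044 in the value table. With the replicate number as a block, the signals gave 4464 genes and 970 line differences and the value table gave 2131 genes and 1168 line differences. Under that block FAT1 and IGF2R passed in the signals, and no other gene of those counted next changed its call. Of the 76 genes named from the value table, 70 kept their direction and their call under the 9 alternatives run, as did 52 of the 54 from the signals, where FAT1 and IGF2R passed under some, and the 6 named from the value table's own background. In the value table the shift to a common median could change no call, since the arrays of a line already share a median (6.631 in MKN45). The methods' t-test was not among the 9. Many of these genes were named for a large change or a small p in these data, so that kept calls are not independent evidence. The exceptions in the value table were SLC7A11, which lost its call without 5 of the 6 arrays in turn, CRELD2, which lost it without DMSO replicate 3, CCN1, which gained it there, and 3 genes near 0 whose sign turned. With each array left out in turn, VEGFA ranged from -0.014 to 0.127, CTNNB1 from -0.039 to 0.038 and CTNND1 from -0.044 to 0.049, none of them passing. With 3 arrays a group, an exact permutation test of a single gene cannot go below p = 0.1.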
